A study of Mus musculus with 12 samples.

Results

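The genes examined here are 10 genes of the contractile cytoskeleton and of the YAP-TEAD and SRF transcription pathways: Ctgf, Cyr61, Thbs1, Ankrd1, Acta2, Myl9, Tagln, Cnn1, Cnn2 and Tpm1. They were taken by name, as all probes whose gene name on the array equals one of these symbols, which gave 19 of 41174 probes and 10 of 27670 gene names. Ctgf and Cyr61 are older names of Ccn2 and Ccn1. The genes were chosen by their log2 differences from the EGFP control in both knockdowns, as known from earlier results of these arrays, so the values below describe them and no test is given for them.

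YAP and its relative TAZ (gene Wwtr1) are coactivators that enter the nucleus when cells spread and build actin tension, and there they act through the TEAD DNA-binding proteins on genes such as Ctgf, Cyr61 and Ankrd1. SRF is a DNA-binding protein that acts with the MRTF coactivators, which are held in the cytoplasm by monomeric actin, on genes of smooth muscle type contraction such as Acta2, Myl9, Tagln and Cnn1. The Hippo kinases hold YAP and TAZ out of the nucleus.

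RNA was measured on Agilent mouse arrays in E14 mouse embryonic stem cells, after esiRNA (a pool of enzymatically cut short interfering RNAs) that targeted Ep400 (the ATPase p400, which remodels chromatin), Kat5 (the acetyltransferase Tip60, found in the same complex) or, as the control, EGFP, which is a jellyfish reporter and no mouse gene. Every sample was 1 well of E14 cells that received 0.33 ng/µl esiRNA with Lipofectamine 2000 for 72 hr, so control cells also went through transfection and received double-stranded RNA. The p400 knockdown was hybridised against EGFP control RNA on 4 two-colour arrays, with p400 RNA in Cy5 on replicates 1 and 3 and in Cy3 on replicates 2 and 4, and the Tip60 knockdown and EGFP control were hybridised on 4 single-colour arrays each. The submitters excluded Tip60 replicate 3 as an outlier, so the Tip60 comparison here used replicates 1, 2 and 4 against the 4 EGFP arrays, and replicate 3 is given apart. The design calls the replicates biological, and both knockdowns were transient and partial.

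Between 27598 and 30752 of 43379 spots per channel were well above background on the p400 arrays, 25073 to 30107 on the single-colour arrays in the comparison, and 22188 on Tip60 replicate 3. Kat5 fell by 1.49 on the log2 scale in Tip60 knockdown (± 0.07 SE, limma adjusted p = 1.35e-05, n = 3 against 4 arrays), and Ep400 fell by 0.58 in p400 knockdown by its brightest probe (± 0.09 SE, limma adjusted p = 0.00555, n = 4 arrays), with its tested probes between -0.72 and 0.22. Kat5 fell in p400 knockdown as well, by 0.43 ± 0.08 (limma adjusted p = 0.0109), and Ep400 had 0.17 in Tip60 knockdown (limma adjusted p = 0.0901). An adjusted p under 0.05 was reached by 35.2% of 18690 genes tested in p400 knockdown and by 25.6% of 16948 in Tip60 knockdown. Of these calls 57.3% and 59.7% were higher, against 29.8% where the p400 arrays were centred on the median and 22.8% where the single-colour arrays were scaled to their median. Those scalings moved the median of all genes to -0.11 and -0.20. The embryonic stem cell markers summed to 523 to 771 on the EGFP arrays and 585 to 605 on the Tip60 arrays (each array's 75th percentile set to 1), and their ratio on the p400 arrays was 0.688 to 1.14. All 9 on the array were well above background on at least 1 array. In p400 knockdown 3 of them (33.3%) fell and 0 rose, beside 15.0% and 20.1% of all genes. In Tip60 knockdown 1 (11.1%) rose and 2 (22.2%) fell, beside 15.3% and 10.3% of all genes. In each knockdown 6 did not pass the threshold, Pou5f1 and Nanog among them.

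Promoters of 7 of the 10 genes were available from RefSeq (build GRCm38.p6), those of Acta2, Ankrd1, Cyr61, Cnn1, Cnn2, Myl9 and Tpm1. The 250 bases before the annotated start were searched on both strands for the TEAD-binding core GGAATG and for the CArG box, the site of SRF. The TEAD core was found in 4 of the 7, those of Acta2, Ankrd1, Cyr61 and Tpm1, and in 12.6% of 32851 mouse promoters of the same length. An exact CArG box was found in 2 of the 7, those of Myl9 and Cnn2, and in 1.47% of all promoters, and no position was shared by the TEAD core and the CArG box. Of the promoters with a match, 4 are printed. Not printed are those of Acta2 and Tpm1, which hold the TEAD core and no exact CArG box. In the printed sequences the TEAD core is in capitals in Cyr61 (as its reverse complement CATTCC) and Ankrd1, and the CArG box in Myl9 and Cnn2. All are written 5′ to 3′ on the gene's strand.
Cyr61 (chr3:145649986-145650235, minus strand): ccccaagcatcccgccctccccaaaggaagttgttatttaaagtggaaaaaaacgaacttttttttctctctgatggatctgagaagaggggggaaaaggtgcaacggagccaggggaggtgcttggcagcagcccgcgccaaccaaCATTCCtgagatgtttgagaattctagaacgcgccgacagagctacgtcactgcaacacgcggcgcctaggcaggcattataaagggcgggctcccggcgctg
Ankrd1 (chr19:36119845-36120094, minus strand): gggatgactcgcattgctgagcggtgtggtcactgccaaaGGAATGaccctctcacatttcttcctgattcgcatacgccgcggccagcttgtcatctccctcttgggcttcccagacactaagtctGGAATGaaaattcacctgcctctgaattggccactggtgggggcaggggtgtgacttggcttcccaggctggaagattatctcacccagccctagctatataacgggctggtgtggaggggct
Myl9 (chr2:156775214-156775463, plus strand): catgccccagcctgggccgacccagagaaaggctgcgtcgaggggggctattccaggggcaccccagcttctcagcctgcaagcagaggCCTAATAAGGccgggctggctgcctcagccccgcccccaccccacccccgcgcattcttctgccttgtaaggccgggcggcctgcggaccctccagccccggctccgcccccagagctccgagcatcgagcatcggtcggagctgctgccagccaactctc
Cnn2 (chr10:79988350-79988599, plus strand): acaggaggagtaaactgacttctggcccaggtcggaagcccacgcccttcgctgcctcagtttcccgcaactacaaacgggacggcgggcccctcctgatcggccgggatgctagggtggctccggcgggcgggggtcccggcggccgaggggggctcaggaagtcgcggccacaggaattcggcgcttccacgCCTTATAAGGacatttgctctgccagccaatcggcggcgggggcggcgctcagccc

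The TEAD core began 103 bases before the start in Cyr61 and 210 and 123 bases before it in Ankrd1, and the CArG box began 161 bases before it in Myl9 and 56 in Cnn2. A match is a run of letters and no measured binding site, and a promoter without one says only that these letters are not in this window.

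All 10 genes were tested in both comparisons, through 16 probes in p400 and 17 in Tip60 knockdown. By the brightest tested probe, 1 gene (Ctgf) was higher past the threshold in p400 knockdown, where 20.1% of all genes were, and 4 (Tagln, Myl9, Cnn2 and Tpm1) were lower, where 15.0% of all genes were. In Tip60 knockdown 1 (Ctgf) was higher past the threshold, against 15.3% of all genes, and 5 (Tagln, Myl9, Cnn1, Cnn2 and Tpm1) were lower, against 10.3%. The median log2 fold change of the 10 was -0.23 in p400 and -0.30 in Tip60 knockdown, with 0.01 over all genes in each. Since the genes were listed with these contrasts in view, nothing is read from those counts. Ctgf stood above the control in both knockdowns, and Myl9, Tagln and Cnn2 stood below it in both. Tpm1 was read by a different brightest tested probe in each comparison, and the one used for Tip60 knockdown lay around 0 in p400 knockdown.

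Ctgf, a secreted matricellular protein and a common readout of YAP activity, gave p400-over-control log2 ratios of 0.87, 1.63, 1.60 and 1.24 in the order of the replicates (probe at chromosome 10, 24349402 to 24349461, build mm7). Every array was above 0, as was so for 28.5% of all genes, and the fitted difference was 1.33 ± 0.13 (SE, n = 4), a 2.52-fold higher level. Ctgf had levels of 3.84, 3.83 and 3.98 in Tip60 replicates 1, 2 and 4 and of 3.61, 3.58, 3.49 and 3.60 in EGFP replicates 1 to 4, in log2 units relative to the array's 75th percentile. The groups did not overlap, with all 3 Tip60 arrays higher (19.7% of all genes), and Tip60 replicate 3 stood at 3.91, within the range of the other Tip60 arrays. The difference was 0.31 ± 0.06 (n = 3 against 4), which is 1.24-fold, and 0.10 when arrays were scaled to their median.

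Cyr61, the close relative of Ctgf and an early YAP target, did not follow it. Its log2 ratios in p400 knockdown were -0.18, 0.22, 0.05 and -0.27 (probe at chromosome 3, 145544387 to 145544446), spread around 0, with a difference of -0.05 ± 0.10. In Tip60 knockdown its levels were 0.55, 0.96 and 0.75 against 1.11, 0.98, 1.14 and 1.01 in EGFP RNA, with replicate 3 at 0.58. All 3 Tip60 arrays were lower, as was so for 16.8% of all genes, though the highest of them (0.96) lay close to the lowest EGFP array (0.98), and the difference was -0.31 ± 0.10. Ctgf and Cyr61 thus lay on opposite sides of the control in Tip60 knockdown.

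Thbs1, a secreted matricellular protein that is a target of both pathways, had 3 probes, of which the brightest lay at chromosome 2, 117866887 to 117866946. This probe had log2 ratios of -0.28, 0.45, 0.38 and 0.17 in p400 knockdown, with replicate 1 alone below 0, and a difference of 0.18 ± 0.12, which was 0.35 without replicate 1, 0.11 without replicate 2 and 0.02 without replicate 3. In Tip60 knockdown its levels of -0.97, -0.84 and -0.69 overlapped the EGFP levels of -0.59, -0.92, -0.81 and -0.83, replicate 3 was at -1.07, and the difference was -0.04 ± 0.10. A second Thbs1 probe differed by -0.05 ± 0.07 in p400 and 0.09 ± 0.13 in Tip60 knockdown. The third was not well above background in either channel of any p400 array and gave 0.26 ± 0.14 in Tip60 knockdown, where it also overlapped the control. Replicate 3 was at -5.49 on the second and -5.59 on the other, against EGFP ranges of -4.62 to -4.19 and -5.60 to -5.05. It was not well above background on either probe.

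Ankrd1, a nuclear ankyrin-repeat protein of muscle and a YAP target, had log2 ratios of -0.26, -0.29, -0.16 and -0.08 in p400 knockdown (probe at chromosome 19, 35813004 to 35813063). All 4 arrays were below 0, as was so for 24.5% of all genes, by a difference of -0.20 ± 0.07, which was -0.50 with the deposited LogRatio values. In Tip60 knockdown its levels were -2.48, -2.50 and -2.75 against -2.65, -2.53, -2.61 and -2.58 in EGFP RNA, so the groups overlapped, with replicate 3 at -2.81, below every EGFP array, and the difference was 0.02 ± 0.08.

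Myl9, the regulatory light chain of smooth muscle myosin, showed the deepest difference of the list in Tip60 knockdown. Its levels were 1.91, 1.98 and 1.93 in Tip60 replicates 1, 2 and 4 and 2.87, 3.02, 2.90 and 2.84 in EGFP replicates 1 to 4 (probe at chromosome 2, 156522455 to 156522514), and replicate 3 was at 2.01. The 2 groups lay far apart with a narrow spread in each, and the difference was -0.97 ± 0.06, a 1.96-fold lower level. In p400 knockdown its log2 ratios of -0.52, -0.35, -0.99 and -0.76 were all below 0, with a difference of -0.66 ± 0.11. The printed promoters of Myl9 and Cnn2 each hold an exact CArG box, and its part in these values was not tested.

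Tagln, also called SM22, an actin-binding protein of smooth muscle, was read by 2 probes. The probe at chromosome 9, 45888956 to 45889015, had log2 ratios of -0.89, -0.81, -0.91 and -0.68 in p400 knockdown, a difference of -0.82 ± 0.07. Its levels were 0.69, 0.92 and 0.85 in Tip60 knockdown against 1.35, 1.38, 1.39 and 1.33 in EGFP RNA, with replicate 3 at 0.86, and the difference was -0.54 ± 0.07. Every array of both comparisons lay on the lower side. The other and brighter probe (chromosome 9, 45888137 to 45888196) had ratios of -0.34, -0.64, -0.51 and -0.99 and a difference of -0.62 ± 0.08 in p400 knockdown. Its single-colour spot was flagged as an outlier on Tip60 replicates 2 and 4 and EGFP replicate 1, so its difference of -0.73 ± 0.10 rests on 1 Tip60 array at 3.74 and 3 EGFP arrays at 4.50, 4.50 and 4.40. The flagged spots read 7.34, 2.95 and 3.74, and with them kept, an alternative chosen after seeing the data, the difference turned to 0.39 ± 0.97.

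Cnn1 (calponin of smooth muscle) and Cnn2 (its more widely expressed relative) bind actin and slow the myosin ATPase. Cnn2 had log2 ratios of -0.40, -0.51, -0.56 and -0.48 in p400 knockdown (probe at chromosome 10, 79775056 to 79775115), the narrowest spread of the members lower on all arrays, with a difference of -0.49 ± 0.07. In Tip60 knockdown its levels of 1.89, 1.88 and 1.95, and 1.91 in replicate 3, all lay below the EGFP levels of 2.44, 2.45, 2.43 and 2.57, by a difference of -0.57 ± 0.06. No array of either comparison crossed the control. Cnn1 had ratios of 0.04, -0.39, -0.34 and -0.36 in p400 knockdown (probe at chromosome 9, 21988172 to 21988231), where replicate 1 stood apart, and a difference of -0.26 ± 0.08, which was -0.17 without replicate 3. Its levels were 1.08, 1.20 and 1.19 in Tip60 knockdown, 1.32 in replicate 3, and 1.52, 1.70, 1.54 and 1.55 in EGFP RNA, a difference of -0.42 ± 0.07 with no overlap.

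**Figure D1:**
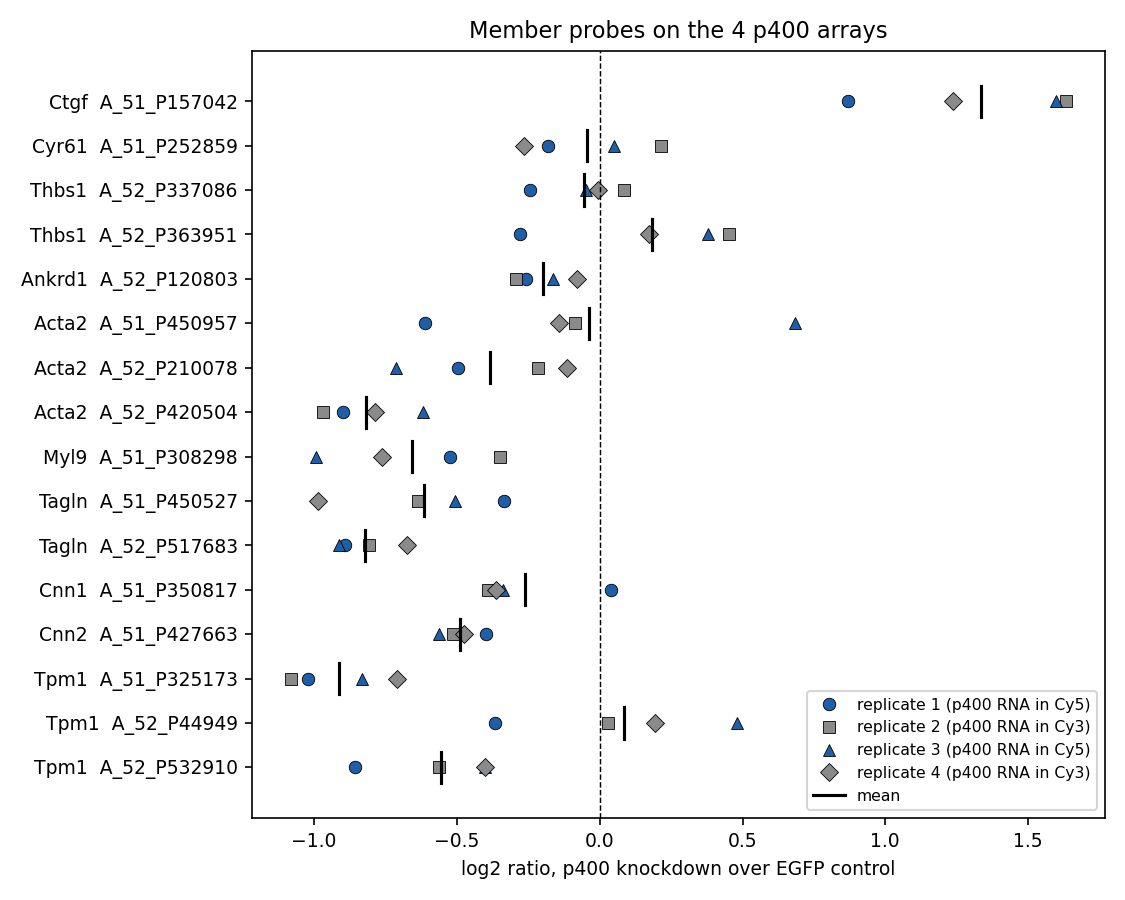
Log2 ratio of p400 knockdown over EGFP control (x axis) for the 16 tested probes of the 10 genes (y axis), 1 symbol per array, coloured by the dye of the p400 RNA, with the mean as a bar. All 4 Ctgf values lie from 0.87 to 1.63, and 9 of the 16 probes are below 0 on every array, as are 24.5% of all genes.

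**Figure D2:**
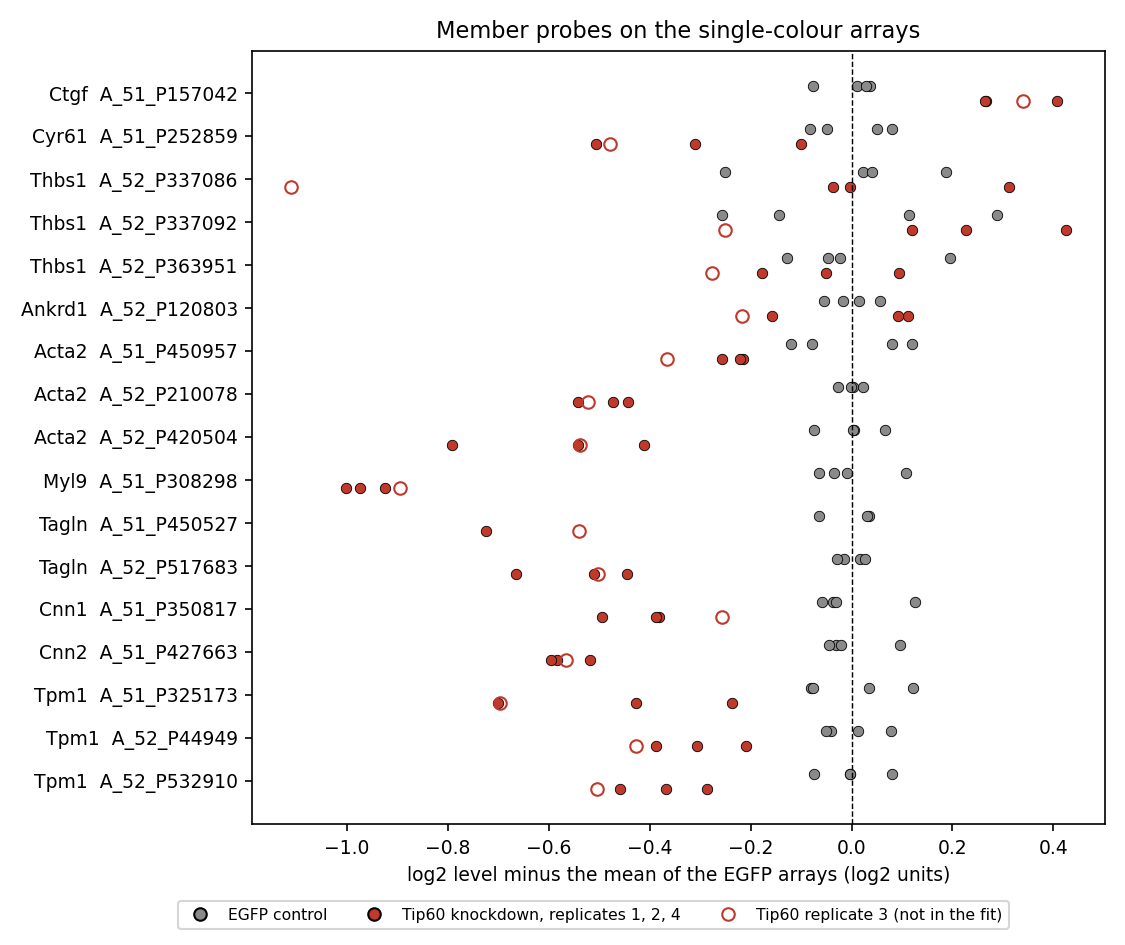
Log2 level on each single-colour array minus the mean of the EGFP arrays (x axis) for the 17 tested probes (y axis), with EGFP in grey, Tip60 replicates 1, 2 and 4 in red and replicate 3 as an open circle. On 11 probes all 3 Tip60 arrays lie below all 4 EGFP arrays (16.8% of all genes), and on the Ctgf probe they lie above them (19.7%).

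For Acta2 and Tpm1 the value depended on the probe. Acta2, smooth muscle alpha actin, had 5 probes, of which 3 were tested. The probe at chromosome 19, 33942803 to 33942862, spotted 10 times on each array, had log2 ratios of -0.90, -0.97, -0.62 and -0.79 in p400 knockdown and a difference of -0.82 ± 0.08. Its levels were 1.65, 2.03 and 1.90 in Tip60 knockdown, 1.90 in replicate 3, and 2.37, 2.51, 2.44 and 2.44 in EGFP RNA, with no overlap and a difference of -0.58 ± 0.09. The probe spanning 33949738 to 33952992 (an interval of 3255 bases for 60 probe bases, so not 1 unbroken stretch of genome) was the brightest, and it gave ratios of -0.61, -0.09, 0.68 and -0.14, on both sides of 0, and a difference of -0.04 ± 0.19. That value was 0.29 without p400 replicate 1 and -0.36 without replicate 3. In Tip60 knockdown it differed by -0.23 ± 0.07. Another probe, at 33942440 to 33942499, differed by -0.39 ± 0.07 in p400 knockdown, where it was well above background in p400 RNA on 3 of 4 arrays, and by -0.49 ± 0.05 in Tip60 knockdown. Its p400 value was -1.69 with the deposited LogRatio values and -0.58 with the series matrix values. Actin genes are nearly identical in their coding sequence, and whether the brightest probe also reads other actins was not tested. The probes of Actg2 and Actb stood highest on p400 replicate 3 as well, at 0.91 and 0.90. On the other arrays Actg2 had -0.48, -0.26 and -0.14 and Actb -0.03, -0.10 and 0.46. Genes that are no actins also stood highest on replicate 3, among them Amot (2.18), Igfbp3 (1.67) and a Tpm1 probe (0.48). The other actins gave these calls: Acta1, the skeletal muscle actin, fell by 0.69 in p400 knockdown (± 0.07, limma adjusted p = 0.00221), while Actb, Actc1 and Actg2 passed the threshold in neither knockdown.

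Tpm1 encodes several tropomyosins, rod proteins that lie along actin filaments, by alternative splicing. Its probe at chromosome 9, 67059621 to 67061176, had log2 ratios of -1.02, -1.08, -0.83 and -0.71 in p400 knockdown and a difference of -0.91 ± 0.09, the deepest of all 16 probes. The probe at 67064287 to 67065357 had ratios of -0.86, -0.56, -0.40 and -0.40 and a difference of -0.56 ± 0.09. The probe at 67054531 to 67054590 had ratios of -0.37, 0.03, 0.48 and 0.19, around 0, and a difference of 0.08 ± 0.14. The 3 probes of 1 gene thus ran from a 1.88-fold lower level to values on both sides of 0. In Tip60 knockdown all 3 were lower with no overlap, by -0.46 ± 0.11, -0.37 ± 0.07 and -0.30 ± 0.07 in the same order, and replicate 3 was at 1.88, 2.76 and 3.28 against lowest EGFP levels of 2.50, 3.19 and 3.66. The sequences of the first 2 are printed with the brightest probe of Acta2. That of the third Tpm1 probe, the one around 0 in p400 knockdown, is not printed. Which splice forms each one reads was not analysed here. In the first Tpm1 probe a reading frame from its first base is open for 15 codons and ends at the TAA in capitals, bases 46 to 48.
Tpm1, probe at 67059621 to 67061176: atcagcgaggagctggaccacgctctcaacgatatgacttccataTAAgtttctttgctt
Tpm1, probe at 67064287 to 67065357: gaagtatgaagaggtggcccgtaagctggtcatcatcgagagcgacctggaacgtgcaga
Acta2, probe at 33949738 to 33952992: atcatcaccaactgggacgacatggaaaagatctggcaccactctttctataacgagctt

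**Figure D3:**
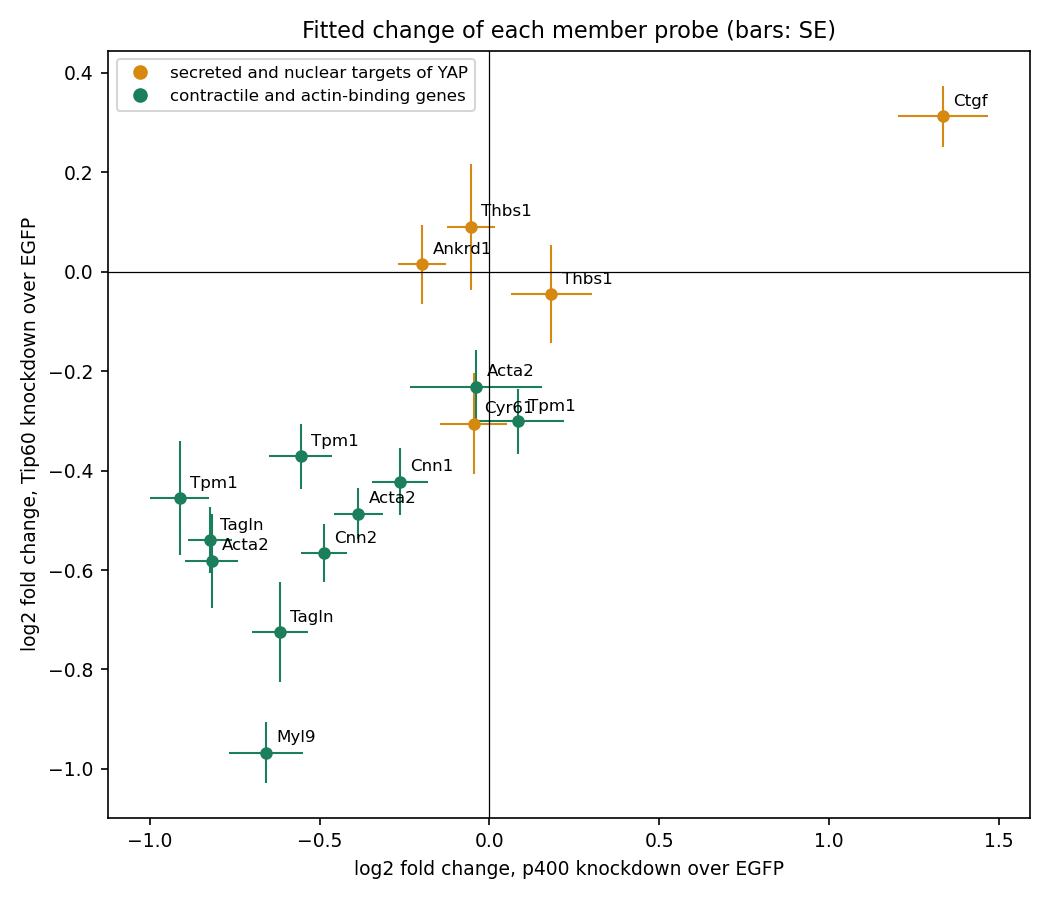
Fitted log2 fold change over EGFP control in p400 knockdown (x axis) and Tip60 knockdown (y axis) for the 16 probes tested in both, with standard errors as bars and the YAP targets Ctgf, Cyr61, Thbs1 and Ankrd1 in orange. Ctgf stands alone at 1.33 and 0.31, Myl9 is lowest on the y axis at -0.97, and the Tpm1 and Acta2 probes spread along the x axis.

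Across the tested probes, 9 of 16 were below 0 on all 4 p400 arrays and 1 (Ctgf) was above 0 on all 4. Of all genes, by 1 probe each, 24.5% were below 0 and 28.5% above 0 on all 4. In Tip60 knockdown 11 of 17 probes were lower than EGFP on every array, 1 (Ctgf) was higher, 4 overlapped (the 3 of Thbs1 and that of Ankrd1), and the brighter Tagln probe lacked values. Of all genes, 16.8% were lower in this way and 19.7% higher. Some genes have more than 1 of these probes, and the genes were listed with these contrasts in view, so nothing is read from the counts. The order of size was not the same in both: Myl9 was lower by 0.66 in p400 and 0.97 in Tip60 knockdown, and the Tagln probe with all arrays by 0.82 and 0.54. The difference between the knockdowns was not tested, since both contrasts chose the genes. On 14 of 17 probes Tip60 replicate 3 lay on the side of the EGFP mean given by the difference fitted without it. The exceptions were Ankrd1 and 2 Thbs1 probes on which replicate 3 was not well above background. Including replicate 3 turned the difference of 2 probes, that of Ankrd1 from 0.02 to -0.04 and that of 1 of these Thbs1 probes from 0.09 to -0.21 ± 0.28.

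The single-colour arrays lay on 2 slides that each held both groups, and all p400 arrays on 1. Within slide 2 (Tip60 replicates 2 and 4, EGFP replicates 1 and 3) the differences were 0.36 for Ctgf, -0.27 for Cyr61, -0.93 for Myl9, -0.52 for Cnn2, -0.34 for Cnn1 and -0.48 for Tagln. Within slide 3 (Tip60 replicate 1, EGFP replicates 2 and 4) they were 0.25, -0.44, -1.02, -0.62, -0.54 and -0.66 in the same order. With slide as a block they were 0.31, -0.34, -0.97, -0.56, -0.42 and -0.55. Every one of these genes kept its side of the control on both slides, with Tagln read by its probe with all arrays. Not all members did: the second Thbs1 probe had -0.12 within slide 2 and 0.42 within slide 3.

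Markers of other cell types that express contractile genes were measured beside them. Of 13 fibroblast markers 3 (Col6a1, Postn and Lum) were never well above background on a single-colour array, and their summed level was 20 to 23.9 on the EGFP arrays, 23.7 to 26.5 on Tip60 replicates 1, 2 and 4 and 25.4 on replicate 3. On the p400 arrays the ratio of the summed levels was 0.939 to 1.18. Of the 9 fibroblast markers tested 6 rose and 1 fell in p400 knockdown and 5 rose in Tip60 knockdown, beside 20.1% higher and 15.0% lower of all genes in p400 knockdown and 15.3% higher in Tip60 knockdown. The surface protein Thy1 (1.43 and 1.25) and the collagen Col5a1 (0.67 and 0.46) rose in both. The intermediate filament gene Vim fell in p400 knockdown (-0.37, limma adjusted p = 0.0109), and the collagens Col1a1 and Col1a2 rose there (0.80 and 0.49) and had -0.11 and -0.16 in Tip60 knockdown. The 8 smooth muscle markers summed to 4.26 to 5 on the EGFP arrays and 3.9 to 4.66 on the Tip60 arrays, and on the p400 arrays their ratio was 0.916 to 1.41. Of those tested, 2 of 8 rose in p400 and 1 of 7 in Tip60 knockdown. Myocd, a cofactor of SRF, was too dim to test in Tip60 knockdown. The 9 cardiac markers, all tested, summed to 4.2 to 4.68 on the EGFP and 4.88 to 5.41 on the Tip60 arrays. Of them 3 rose and 1 fell in p400 knockdown and 3 rose in Tip60 knockdown. The 7 endothelial markers, with Cdh5 and Emcn never well above background there, summed to 1.58 to 1.63 and 1.8 to 1.9. Of those tested, 1 of 6 rose in p400 and 2 of 4 in Tip60 knockdown. The smooth muscle, cardiac and endothelial counts stand beside the same shares of all genes as the fibroblast counts. In these bulk samples fewer cells of a type and less RNA per cell cannot be told apart, and the part of other cell types in the members' values was not tested.

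The regulators of the pathways were tested across all genes. Of SRF and its cofactors, 1 rose and 2 fell of 8 tested in p400 knockdown (median 0.03), and 1 rose and 2 fell of 6 in Tip60 knockdown (median -0.11), beside 20.1% higher and 15.0% lower, and 15.3% and 10.3%, of all genes. Yap1 and Wwtr1 did not pass the threshold in either knockdown (Yap1 0.02 ± 0.08 and -0.17 ± 0.07, limma adjusted p = 0.901 and 0.123; Wwtr1 0.08 and -0.04). Yap1 did pass in Tip60 knockdown with arrays scaled to their median (-0.38, limma adjusted p = 0.017) and with replicate 3 included under array weights (-0.20, adjusted p = 0.0369), and Wwtr1 in p400 knockdown with median centring (-0.21, adjusted p = 0.0453). Among the TEAD factors, Tead2 fell in both knockdowns (-0.47 ± 0.06, limma adjusted p = 0.00449, and -0.40 ± 0.08, adjusted p = 0.0109), and its p400 ratios of -0.50, -0.41, -0.60 and -0.35 were all below 0. Tead4 fell in p400 knockdown (-0.37 ± 0.09, limma adjusted p = 0.0284), with a limma adjusted p of 0.119, 0.0749 and 0.0683 without p400 replicates 2, 3 and 4. Tead1 fell in Tip60 knockdown (-0.29 ± 0.07, limma adjusted p = 0.0207), with 0.0672 and 0.057 without Tip60 replicates 2 and 4, and Tead3 passed in neither. Srf itself fell in both, by 0.27 ± 0.06 in p400 knockdown (limma adjusted p = 0.0218) and by 0.43 ± 0.06 in Tip60 knockdown (adjusted p = 0.00158). Its ratios on the p400 arrays were 0.01, -0.51, -0.08 and -0.50, near 0 on the arrays with p400 RNA in Cy5, and its limma adjusted p there was 0.114, 0.0695 and 0.0886 without replicates 2, 3 and 4. Its Tip60 levels of 1.75, 1.82 and 1.86 lay below the EGFP levels of 2.20, 2.28, 2.28 and 2.18. Of its cofactors, Mrtfa passed in neither (0.05 and -0.10), and Mrtfb rose by 0.32 ± 0.06 in Tip60 knockdown (limma adjusted p = 0.00957), with 0.19 in p400 knockdown. Elk3, a cofactor of the other SRF branch, fell in both (-0.54 and -0.30, limma adjusted p = 0.00333 and 0.00632).

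**Figure D4:**
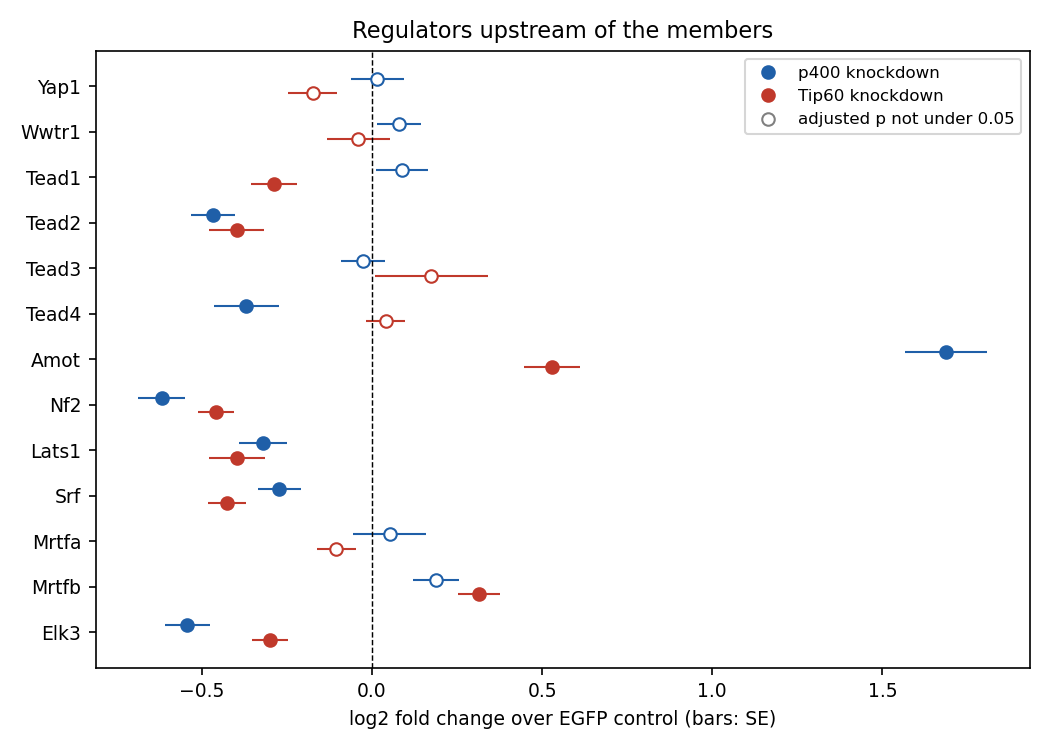
Log2 fold change over EGFP control with its standard error (x axis) for 13 regulators of the YAP and SRF pathways (y axis) in p400 (blue) and Tip60 knockdown (red), filled where the limma adjusted p is under 0.05. Amot lies highest at 1.69 in p400 knockdown, and Srf, Tead2, Nf2, Lats1 and Elk3 lie below 0 in both.

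Of the 22 tested genes of the Hippo, YAP and TEAD list, 2 rose and 5 fell in p400 knockdown (median -0.01, over all genes 0.01), and 1 rose and 8 fell in Tip60 knockdown (median -0.12). In p400 knockdown 9.09% thus rose and 22.7% fell, beside 20.1% and 15.0% of all genes. In Tip60 knockdown 4.55% rose and 36.4% fell, beside 15.3% and 10.3% of all genes. Amot, an angiomotin that binds YAP, rose in both, by 1.69 ± 0.12 in p400 (limma adjusted p = 0.000859) and 0.53 ± 0.08 in Tip60 knockdown (adjusted p = 0.00342). Its p400 ratios were 1.49, 1.65, 2.18 and 1.43, all above 0. Nf2, the merlin tumour suppressor upstream of the Hippo kinases, fell by 0.62 ± 0.07 and 0.46 ± 0.05 (limma adjusted p = 0.00243 and 0.000985). The kinase Lats1 fell by 0.32 and 0.40 (limma adjusted p = 0.0171 and 0.0129). Other probes of these genes differed: the least changed probe gave -0.07 and -0.12 for Nf2 and 0.09 and 0.01 for Lats1.

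Of the other YAP-TEAD targets, 6 rose and 1 fell of 16 tested in p400 knockdown (median 0.08), and 3 rose and 3 fell of 15 in Tip60 knockdown (median 0.03). These are 37.5% and 6.25%, and 20% each way, where 20.1% and 15.0%, and 15.3% and 10.3%, of all genes rose and fell. Among the 6 rises in p400 knockdown, Areg (0.53) entered the test only through p400 RNA. It was well above background in p400 RNA on 4 arrays and in EGFP RNA on 1, and was not tested in Tip60 knockdown. Igfbp3, an insulin-like growth factor binding protein, rose by 1.27 ± 0.12 in p400 (limma adjusted p = 0.00169) and 0.33 ± 0.07 in Tip60 knockdown (adjusted p = 0.00997). Nt5e, the CD73 ecto-enzyme, rose by 0.56 ± 0.10 and 0.34 ± 0.06 (limma adjusted p = 0.00939 and 0.00608). Dock5, an exchange factor for Rac, fell by 0.42 ± 0.06 and 0.45 ± 0.05 (limma adjusted p = 0.00607 and 0.000694). The least changed Dock5 probe gave -0.02 and -0.06, and a second Igfbp3 probe gave 0.36 and 0.64. Axl, a receptor kinase, and F3, tissue factor, were chosen here after their values were seen and passed in neither.

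Of the other cytoskeletal targets of SRF and MRTF, 6 rose and 6 fell of 23 in p400 knockdown (median 0.13), and 1 rose and 5 fell of 23 in Tip60 knockdown (median -0.12). In p400 knockdown that is 26.1% each way, beside 20.1% higher and 15.0% lower of all genes. In Tip60 knockdown it is 4.35% higher and 21.7% lower, beside 15.3% and 10.3% of all genes. Of the tropomyosin relatives of Tpm1, Tpm4 fell by 0.54 ± 0.07 and 0.44 ± 0.05 (limma adjusted p = 0.00315 and 0.0013), and Tpm2 by 0.41 and 0.38 (adjusted p = 0.0087 and 0.00938), while Tpm3 passed in neither (0.21 and -0.06). Among the rises in p400 knockdown was Tgfb1i1, a focal adhesion adaptor, at 0.66 ± 0.09 (limma adjusted p = 0.00381), with 0.15 by its least changed probe. Zyx, the focal adhesion protein zyxin, fell by 0.38 ± 0.07 in Tip60 knockdown (limma adjusted p = 0.00909), with 0.17 in p400 knockdown. Myh11, the smooth muscle myosin heavy chain, rose in Tip60 knockdown, where the light chain Myl9 was lower, by 1.18 ± 0.22 (limma adjusted p = 0.00801), with levels of -3.62, -4.50 and -4.57 against -5.49, -5.44, -5.44 and -5.27. That difference was 0.39 with normexp and quantile and 0.37 with the series matrix values (the limma adjusted p stayed under the threshold). In p400 knockdown Myh11 rose as well, by 0.26 ± 0.08 (limma adjusted p = 0.0459).

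Of the immediate early genes under SRF and its ternary complex cofactors, 3 rose and 1 fell of 9 in p400 knockdown (median 0.13), and 3 fell in Tip60 knockdown (median -0.14). Egr1 passed the threshold in opposite directions, higher by 0.86 ± 0.09 in p400 (limma adjusted p = 0.00223) and lower by 0.40 ± 0.08 in Tip60 knockdown (adjusted p = 0.0108), and the difference between the knockdowns was not tested. Junb fell by 0.51 ± 0.07 in Tip60 knockdown (limma adjusted p = 0.00226). Of the relatives of the members in sequence, 6 rose and 5 fell of 20 in p400 knockdown (median 0.17), and 1 rose and 3 fell of 18 in Tip60 knockdown (median -0.09). Thbs2, the relative of Thbs1, rose in Tip60 knockdown by 1.13 ± 0.11 (limma adjusted p = 0.000364), with levels of -2.40, -2.42 and -2.56 against -3.43, -3.78, -3.44 and -3.71, and by 0.64 with normexp and quantile. In p400 knockdown Thbs2 rose by 0.43 ± 0.10 (limma adjusted p = 0.02), with a limma adjusted p of 0.0883 and 0.0703 without p400 replicates 2 and 3. Taking each pathway gene once, 26 of 110 rose and 23 fell in p400 knockdown, and 9 of 105 rose and 24 fell in Tip60 knockdown, beside 20.1% and 15.0%, and 15.3% and 10.3%, of all genes.

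**Figure D5:**
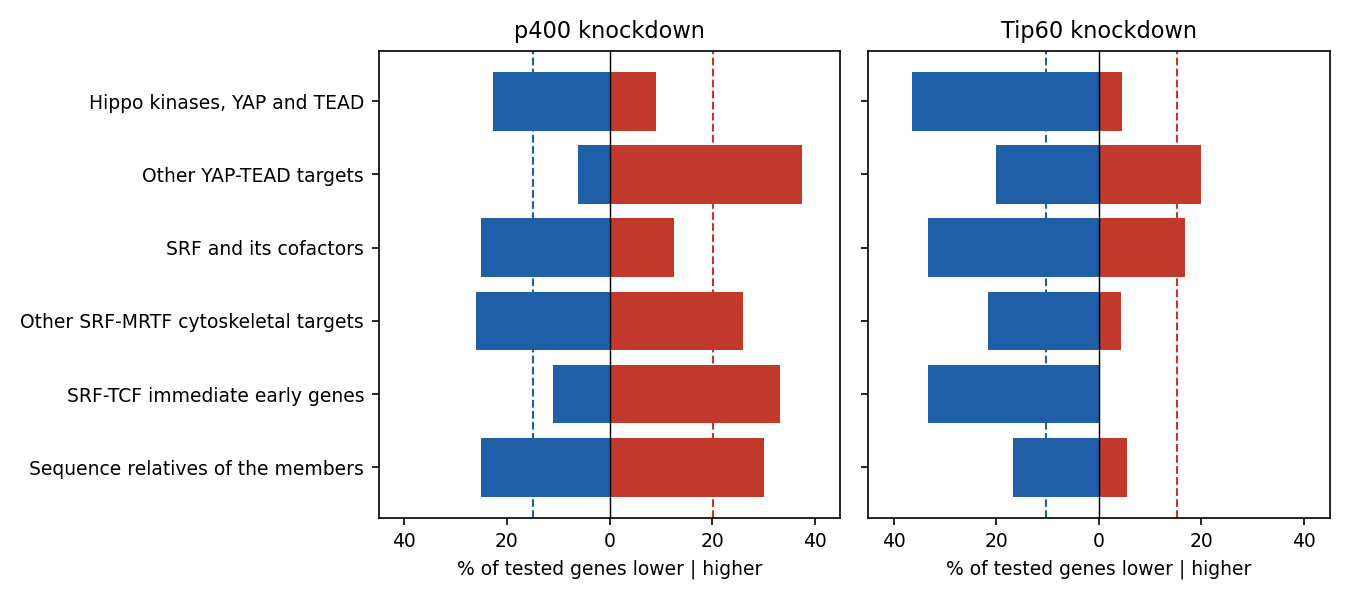
Percentage of the tested genes of each of 6 pathway lists (y axis) that were lower (blue, to the left) or higher (red, to the right) past an adjusted p of 0.05 in p400 and Tip60 knockdown, with dashed lines at the percentages over all genes tested. In Tip60 knockdown 36.4% of the Hippo list were lower, against 10.3% of all genes.

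The calls on these pathway genes depended on the scaling and on the number of arrays. With p400 arrays scaled to a common spread, the limma adjusted p of Ep400, Kat5, Tead2, Tead4, Srf, Elk3, Amot, Nf2, Dock5, Tpm4, Acta1 and Egr1 lay between 0.0519 and 0.159, while each of these differences was larger in size than in the values above (Amot 1.84, Egr1 0.93, Nf2 -0.74). With the single-colour arrays scaled to their median, Mrtfb (0.11), Amot (0.32), Nt5e (0.13) and Igfbp3 (0.12) no longer passed in Tip60 knockdown, and Mrtfb had 0.17 with normexp and quantile. With slide as a block, none of the 34 genes followed through the alternatives in Tip60 knockdown lost its call or turned. Within slide 2 alone, with fewer arrays, the Tip60 calls of Tead1, Tead2, Mrtfb, Lats1, Elk3, Igfbp3, Nt5e, Tpm2, Zyx and Egr1 were lost (limma adjusted p = 0.0557 to 0.156), while slide 3 holds 1 Tip60 array in the fit, assumed to vary like the EGFP arrays, so its p-values say little about stability. The differences there were -0.48 for Srf, 0.42 for Amot, -0.44 for Nf2, -0.46 for Dock5, -0.52 for Tpm4 and -0.53 for Junb. Tead1 also lost its call with no filter on dim probes (limma adjusted p = 0.0693), and Nt5e and Mrtfb with the series matrix values (0.0596 and 0.0602). Srf lost its call in p400 knockdown without the dye term (limma adjusted p = 0.104). Median centring of the p400 arrays took Tead2 to -0.76, Srf to -0.56, Dock5 to -0.69 and Tpm4 to -0.86, and the deposited LogRatio values took Tead4 to -0.71 and Acta1 to -1.10.

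The genes whose pattern was most like that of the members were sought over 11 values, the 4 p400 log2 ratios and the 7 single-colour levels relative to the EGFP mean. The pattern was the median of the 9 members with all values (Tagln lacked some), which was -0.28, -0.29, -0.16 and -0.27 on the p400 arrays, -0.39, -0.21 and -0.31 on the Tip60 arrays and -0.04 to 0.02 on the EGFP arrays. Among 16686 genes, the 5 with the highest Pearson r were Dbn1 (0.95), Spats2l, Irf2bp2, Ttc7b and Hmgb3 (all 0.93). Dbn1 had differences of -0.41 in p400 and -0.59 in Tip60 knockdown. Of the members, Cnn2 had an r of 0.89 with the median and Myl9 0.80, while Thbs1 had -0.05 and Ctgf -0.51. The genes were measured on the same arrays and the 7 single-colour values share the EGFP mean, so the r is a description.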

How the data were processed

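Per the file headers, Agilent's Feature Extraction (version 9.5.1.1) turned the scans into each spot's intensity (mean, background and processed signal), and on two-colour arrays the deposited LogRatio, a log10 ratio. The series matrix, as deposited, gives log2 values, and how they were normalized is not given in the sources used here. Positions of probes follow mm7, the build that the headers name, and its annotation was not used here.

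For p400, intensities were corrected with normexp (offset 50), normalized by loess and fitted with limma 3.58.1 with a dye term. For Tip60, log2 processed signal minus the array's 75th percentile was compared between 3 Tip60 and 4 EGFP arrays. Spots flagged as outliers and 1639 control spots were left out. A probe entered the tests if 3 or more arrays of one of the RNAs had it well above background, which favours rises among genes dim in EGFP RNA. A gene took its brightest tested probe. P-values were adjusted by Benjamini-Hochberg over all genes, with a threshold of 0.05. No member spot was saturated. The steps were tested on simulated data. Named genes are the 10 members, the targets, Yap1, Wwtr1, the Tead factors, Srf and its MRTF cofactors always, up to 3 called genes each way per pathway list and knockdown by size (some left out for length), and the 5 genes of like pattern. Fibroblast and actin examples were chosen after their values were seen. Members and lists were chosen with earlier results of these data known. The number of arrays limits the precision. Alternatives were other background corrections, scalings and filters, the deposited LogRatio and series matrix values, every probe alone, each slide alone or as a block, a replicate block, each array left out, and, chosen after seeing the data, outlier spots kept. Work was done in R 4.3.3. The counts over all pathway genes include 1 list that is not reported on its own here.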

Additional observations from a re-analysis of the deposited data

Results flagged for a closer look

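The 4 p400 ratios of 16 member probes, and the 4 EGFP and 4 Tip60 levels of 16 (15 of them the same probes), were examined for a single value far from the rest, and 2 values of 1 gene stood apart. On the Cnn1 probe, p400 replicate 1 had a log2 ratio of 0.0399 while the other 3 arrays lay between -0.39 and -0.34. On the same probe EGFP replicate 2 had a level of 1.70 while the other EGFP arrays lay between 1.52 and 1.55. By chance about 1 in 20 groups would be marked in this way.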

How the results depend on the processing

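Of the member probes, 13 of 16 kept one direction in p400 knockdown and 12 of 17 in Tip60 knockdown under all settings tried for the probes. The exceptions were the Cyr61 probe, the brightest Acta2 probe and 1 Tpm1 probe in p400 knockdown, and the brighter Tagln probe, the Thbs1 probes and Ankrd1 in Tip60 knockdown. Ctgf ran from 1.02 to 1.52 in p400 and from 0.10 to 0.36 in Tip60 knockdown, and Myl9 from -0.93 to -0.54 and from -1.18 to -0.93. Cnn2 ran from -0.77 to -0.45 and from -0.78 to -0.49, Cnn1 from -0.51 to -0.17 and from -0.63 to -0.34, the Tagln probe with all arrays from -1.16 to -0.79 and from -0.75 to -0.48, and the Acta2 probe with 10 spots from -1.06 to -0.75 and from -0.83 to -0.44. Tagln by its brighter probe turned to 0.25 with the series matrix values and 0.39 with outlier spots kept in Tip60 knockdown.

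In p400 knockdown, 6577 genes passed, but 2426 with arrays scaled to a common spread, and between 3150 and 5752 with 1 replicate left out (lowest without replicate 2). Of the pathway genes 49 passed, but 16 with arrays scaled, 74 when every probe was tested alone, and 23 to 47 with 1 replicate left out (23 without replicate 2, 31 without replicate 3). In Tip60 knockdown 4333 genes passed, between 3151 and 3696 with 1 array left out, but 1882 within slide 2 and 1877 within slide 3. Of the pathway genes 33 passed, but 58 with the array median as the scale, 12 within slide 2 and 5 within slide 3. The deviations of same-numbered Tip60 and EGFP arrays correlated at -0.259, -0.327 and -0.124. Each such pair lay on different slides, where pairs with unlike numbers had -0.39, -0.306 and 0.042. Slide and number are thus mixed, and these values cannot tell whether the numbers pair the samples. With the number as a replicate block 1897 genes and 11 pathway genes passed.

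Directions turned for regulators near 0. In p400 knockdown with median centring these were Yap1 (-0.208), Wwtr1 (-0.206), Tead1 (-0.228), Tead3 (0.0498) and Mrtfa (-0.236). The immediate early gene Dusp1, a called rise of 0.26, also turned there (-0.0395) and lost its call without any 1 of the 4 replicates. Yap1 also turned with LogRatio (-0.0564), scaled arrays (-0.0733) and the series matrix (-0.01), Wwtr1 with scaled arrays (-7e-04) and Mrtfa with scaled arrays (-0.0387). With 1 p400 replicate left out Yap1 ran from -0.0475 to 0.0774 and Mrtfa from -0.0918 to 0.1968. In Tip60 knockdown Tead3 turned with normexp and quantile (-0.0916), the array median (-0.0351) and the series matrix (-0.135), Tead4 with normexp and quantile (-8e-04) and the array median (-0.169), and Ep400 with the array median (-0.0385). With 1 array left out Wwtr1 ran from -0.0935 to 0.0312 and Tead3 from -0.0173 to 0.2895. The cause was not tested.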
